A study of Mus musculus with 10 samples.

Results

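The interferon-stimulated genes were followed in SW1 melanomas, a mouse tumor line grown under the skin of female C3H/HeJ mice of 4 to 6 weeks, by single-cell RNA sequencing (scRNAseq). The list named 37 genes chosen as well-known targets of interferon, and 35 of them were among the 32285 genes of the files. Mx1 and Mx2 were not analysed here. The mice were given water with L-fucose (L-fuc, 100 mM, although 1 of the protocols in the labels has nM) or control water. The water began 10 days after the cells were injected per the labels, and later than that per the paper. Tumors were taken then (pretreatment, day 0, which the labels also give as control water) and 7 or 21 days later. Each of these 5 groups is 1 library pooled from 3 mice before treatment and 6 mice in the others (another label protocol gives 5), so L-fuc and control were compared as 1 library against 1 library, with no test. The labels describe a CD45+ sort, yet CD45 negative tumor cells formed a large part of every library.

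Barcodes with at least 500 genes and at most 10% mitochondrial UMIs (unique molecular identifiers, 1 for each captured RNA molecule) were assigned by a few defining genes. Macrophages held at least 10 UMIs of C1qa, C1qb and C1qc together, T cells at least 2 of Cd3e, Cd3d and Cd3g, and tumor cells at least 1 of Sox10 with 0 of Ptprc, the gene for CD45. Every series of 5 values runs from day 0 through control and L-fuc of day 7 to control and L-fuc of day 21. The macrophages numbered 373, 1253, 1503, 767 and 381. T cells numbered 393, 968, 1292, 54 and 34, and tumor cells 260, 8648, 2820, 471 and 297. The gates were checked with other markers, whose levels are given as UMIs per 1000000 UMIs of the gate (CPM). In macrophages 6 macrophage markers summed to between 2229 and 3400 CPM, and 7 T cell markers to between 965 and 3513 CPM in T cells. Markers of pigment cells, 7 in number, summed to between 112 and 233 CPM in tumor cells, where Tyr was at 0 UMIs in all 5 libraries and Mlana in 3. Macrophage markers reached 216 CPM in T cells of day 0 and 213 CPM in those of control day 7, against 41.7 to 122 CPM in the others. Other foreign markers stood higher in single libraries of the T cell gate. On day 0 B cell markers summed to 628 CPM and monocyte markers to 509 CPM there. Neutrophil markers reached 731 CPM in control and 735 CPM in L-fuc of day 7. The part of these cells in the T cell values was not tested. In all, 352 different barcode sequences were found in more than 1 library, where the 5 libraries together kept 31156 barcodes. Levels are not scaled by transcript length, so they are compared between gates and libraries and not between genes.

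Interferons are signalling proteins of antiviral and antitumor defence. Interferon beta, the product of Ifnb1, is made when sensors of foreign or misplaced RNA and DNA switch on IRF3 and NF-kB, and it signals through the receptor Ifnar1/Ifnar2 and a complex with STAT2 and IRF9 that binds the interferon-stimulated response element. Interferon gamma, the product of Ifng, comes from T cells and natural killer cells and acts through a receptor of its own, with the guanylate-binding proteins (Gbp genes), Irf1 and Cxcl9 among its best known targets.

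Sequences before the start of transcription show where the response element core was matched in some members and not in others. RefSeq windows of the GRCm38.p6 build, 250 bases before to 50 after each start, were matched for 27 of the 37 members. The core of the response element, 2 GAAA half-sites with any 2 bases between them, on either strand, lay in a window of 16 of these 27 genes (59.3%), against 1079 of all 27025 genes with a window (3.99%). The core of the NF-kB site, GGGAA and CC with any 3 bases between, lay in 7 members (25.9%) and 6.59% of all genes. Shown are the ligand gene, Rsad2, Ifit1 and Isg15, which rose beside it within macrophages as described further on, and Gbp2, Oas1a and Bst2, whose tumor cell values are given further on. Capitals mark the response element core, which reads as a pair of TTTC where it lies on the opposite strand, and in Ifnb1 the NF-kB core. Each line holds the 250 bases before the start, read on the strand of the gene.
Ifnb1 (chr4:88522795-88523044, minus strand): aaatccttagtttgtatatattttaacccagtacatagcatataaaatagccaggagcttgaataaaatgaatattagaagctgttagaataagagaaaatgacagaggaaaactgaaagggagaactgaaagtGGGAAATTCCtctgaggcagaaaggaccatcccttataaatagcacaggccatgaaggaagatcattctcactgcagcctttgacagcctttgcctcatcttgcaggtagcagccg
Rsad2 (chr12:26456453-26456702, minus strand): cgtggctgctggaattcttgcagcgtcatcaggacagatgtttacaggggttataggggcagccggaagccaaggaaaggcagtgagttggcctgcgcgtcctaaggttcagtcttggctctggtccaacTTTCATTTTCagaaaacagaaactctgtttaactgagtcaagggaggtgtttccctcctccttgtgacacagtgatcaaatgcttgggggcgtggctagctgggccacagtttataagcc
Ifit1 (chr19:34640639-34640888, plus strand): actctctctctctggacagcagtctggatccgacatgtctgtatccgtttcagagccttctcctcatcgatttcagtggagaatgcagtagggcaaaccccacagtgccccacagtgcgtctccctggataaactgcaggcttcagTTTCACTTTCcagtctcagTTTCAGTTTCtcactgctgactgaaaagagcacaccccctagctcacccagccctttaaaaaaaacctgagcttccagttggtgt
Isg15 (chr4:156200819-156201068, minus strand): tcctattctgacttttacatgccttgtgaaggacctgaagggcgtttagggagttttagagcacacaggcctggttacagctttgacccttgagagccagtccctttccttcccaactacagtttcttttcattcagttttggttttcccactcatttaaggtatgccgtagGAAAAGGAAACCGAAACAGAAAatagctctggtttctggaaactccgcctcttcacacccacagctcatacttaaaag
Gbp2 (chr3:142620413-142620662, plus strand): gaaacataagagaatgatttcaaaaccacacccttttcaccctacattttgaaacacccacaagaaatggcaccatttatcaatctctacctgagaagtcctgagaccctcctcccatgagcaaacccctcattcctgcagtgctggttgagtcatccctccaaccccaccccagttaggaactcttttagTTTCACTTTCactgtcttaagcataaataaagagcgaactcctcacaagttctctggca
Oas1a (chr5:120907526-120907775, minus strand): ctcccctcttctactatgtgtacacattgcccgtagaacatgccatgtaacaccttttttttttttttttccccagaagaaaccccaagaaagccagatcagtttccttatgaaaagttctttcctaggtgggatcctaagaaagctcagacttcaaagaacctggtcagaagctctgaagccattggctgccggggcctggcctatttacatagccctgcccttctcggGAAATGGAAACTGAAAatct
Bst2 (chr8:71537473-71537722, minus strand): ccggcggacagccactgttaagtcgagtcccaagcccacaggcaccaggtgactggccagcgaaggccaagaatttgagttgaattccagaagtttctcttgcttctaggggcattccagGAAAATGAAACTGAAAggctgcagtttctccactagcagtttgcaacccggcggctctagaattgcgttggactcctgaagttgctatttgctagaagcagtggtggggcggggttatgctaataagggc
In Isg15 the core matched 3 times in 1 run, at 78, 72 and 66 bases before the start, and in Oas1a the pair of matches began 20 and 14 bases before it. The Ifnb1 window held no response element core in these letters, and its NF-kB core began 116 bases before the start.

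Among the 3 gates Ifnb1 was highest in macrophages in every library. In macrophages it stood at 48.7, 84.8, 93.2, 146 and 147 CPM (198, 706, 1044, 1078 and 840 UMIs). T cells held 8.71, 8.19, 4.95, 0 and 2.60 CPM. Tumor cells had 0 UMIs on day 0 and in both libraries of day 21, which allows up to 0.671, 0.283 and 0.422 CPM, with 1.23 CPM (85 UMIs) in control day 7 and 0.0730 CPM (3 UMIs) in L-fuc day 7. No T or tumor cell value came near the lowest macrophage value. An Ifnb1 UMI was found in 8.04, 11.6, 7.45, 14.2 and 16.3% of macrophage barcodes, a share that depends on depth (median 6367, 4985, 4171, 5708 and 8308 UMIs), and in 0 to 2.94% of T cells and 0 to 0.867% of tumor cells (medians of 3025 to 5748 and 7394 to 24199 UMIs). The 5% of macrophages with the most Ifnb1 UMIs held 91.9, 84.7, 95.8, 76.3 and 86.4% of them, and single barcodes held up to 85. With every barcode thinned to 2000 UMIs, which left 299, 1094, 1139, 567 and 270 macrophages, the share with a UMI was 4.68, 7.40, 5.27, 11.5 and 9.26%, against at most 1.26% in T cells and 0.355% in tumor cells. Monocytes, gated by their own markers among the other barcodes, numbered 40 on day 0, and 13 of them held an Ifnb1 UMI, at 695 CPM over the gate. In both libraries of day 7 and in control day 21 the monocyte gate stood below macrophages of the same library in Ifnb1. The alpha interferon genes of the pathway list were close to absent from macrophages, with 0 to 14 UMIs of Ifna2 a library and at most 2 of Ifna1, Ifna4 and Ifna5. Other alpha interferon genes were not examined.

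**Figure D1:**
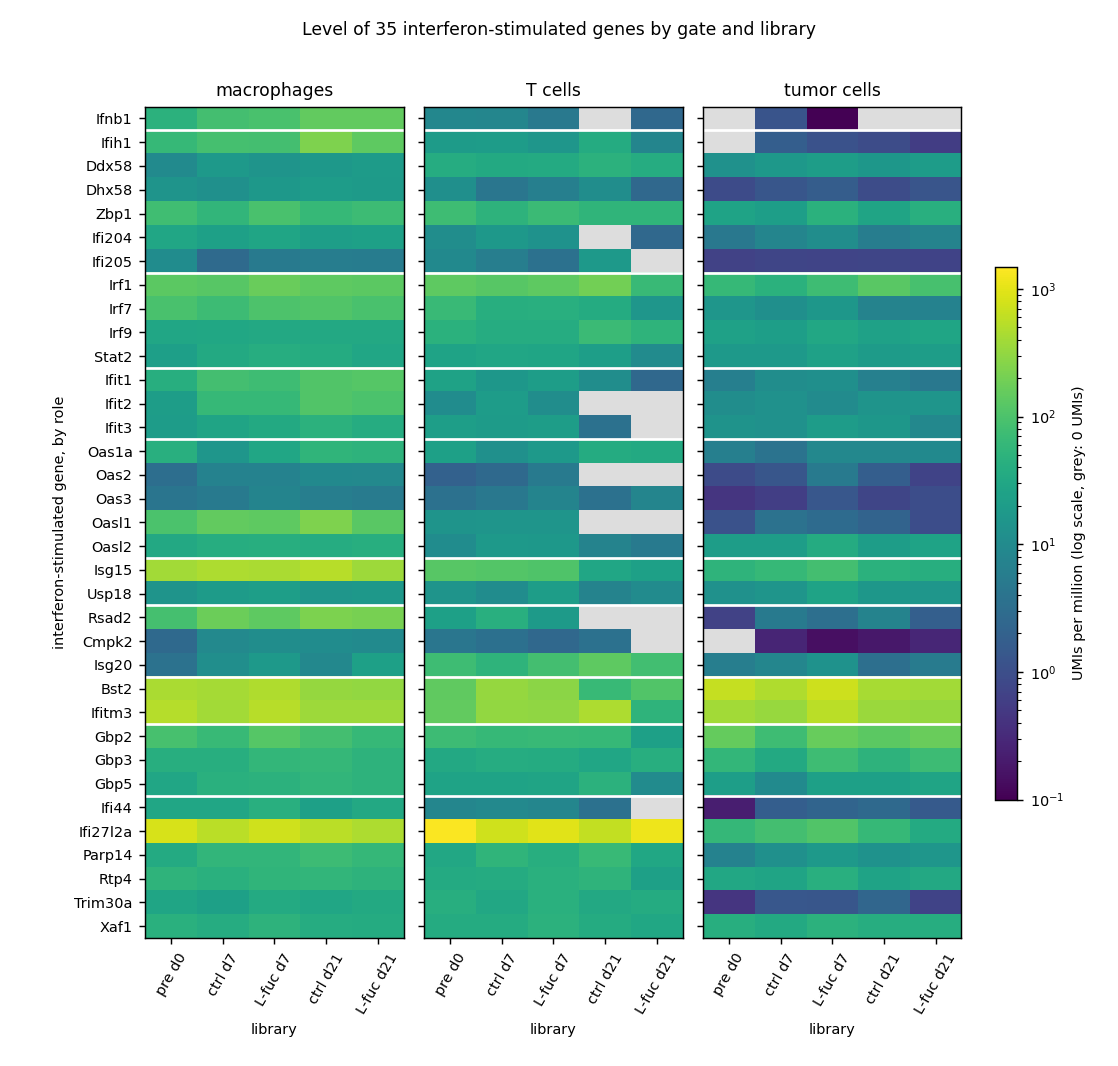
Level of the 35 genes (rows, grouped by role) in macrophages, T cells and tumor cells of each library (columns), as CPM on a logarithmic colour scale, with grey for 0 UMIs. Isg15, Bst2, Ifitm3 and Ifi27l2a are bright in macrophages, and Ifnb1, Ifih1, Oasl1 and Rsad2 are bright there and dark in tumor cells.

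Most members were higher in macrophages than in T cells and in tumor cells. Smaller gates among the other barcodes were not tested. Summed over the members, monocytes held 12216, 8664, 7256 and 4494 CPM from day 0 to control day 21. Macrophages held 3467, 3295, 3932 and 3911 CPM in the same libraries. Neutrophils held 5698 CPM in control and 9734 CPM in L-fuc of day 7. The plasmacytoid dendritic cell, natural killer and B cell gates held between 998 and 2138 CPM. Abundant members weigh most in such sums. The median member stood at 107, 67.1, 69.9 and 41.9 CPM in these monocytes. In macrophages of the same libraries it stood at 35.2, 41.3, 50.001 and 55.05 CPM. In neutrophils of day 7 it stood at 40.8 and 50.9 CPM, close to macrophages. Monocytes of control day 21 thus lay below macrophages by the median, though not by the sum. These gates held 40, 70, 140 and 20 monocytes and 20 and 40 neutrophils. Over the 5 libraries, with the library as a block (edgeR quasi-likelihood test), 33 of 35 members were higher in macrophages than in tumor cells and 0 lower, where 35.7% of all 12872 genes tested were higher and 31.5% lower. The median log2 difference of the members was 2.67, against 0.04 over all genes. The exceptions were Bst2, or tetherin, which holds budding virus at the membrane (0.26, SE 0.25, adjusted p = 0.379), and Gbp2 (-0.05, SE 0.22, adjusted p = 0.850). Against T cells, 27 members were higher in macrophages (background 21.4%) and 2 lower (19.1%), with a median of 1.05 against -0.06. T cells exceeded tumor cells for 23 members (33.4%) and fell below them for 3 (28.7%), with a median of 1.23 against 0.04. These counts depended on scaling. With total UMIs in place of TMM factors, chosen after seeing the data, the medians of all genes moved to -0.42, -0.60 and -0.23, and the members counted 17 higher and 3 lower in macrophages against T cells, 26 and 1 in macrophages against tumor cells, and 20 and 4 in T cells against tumor cells. All 12872 genes then split into 1779 higher and 4675 lower, 2729 and 7421, and 3305 and 4970, in the same order. Differences are given on the TMM scale unless total UMIs are named.

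**Figure D2:**
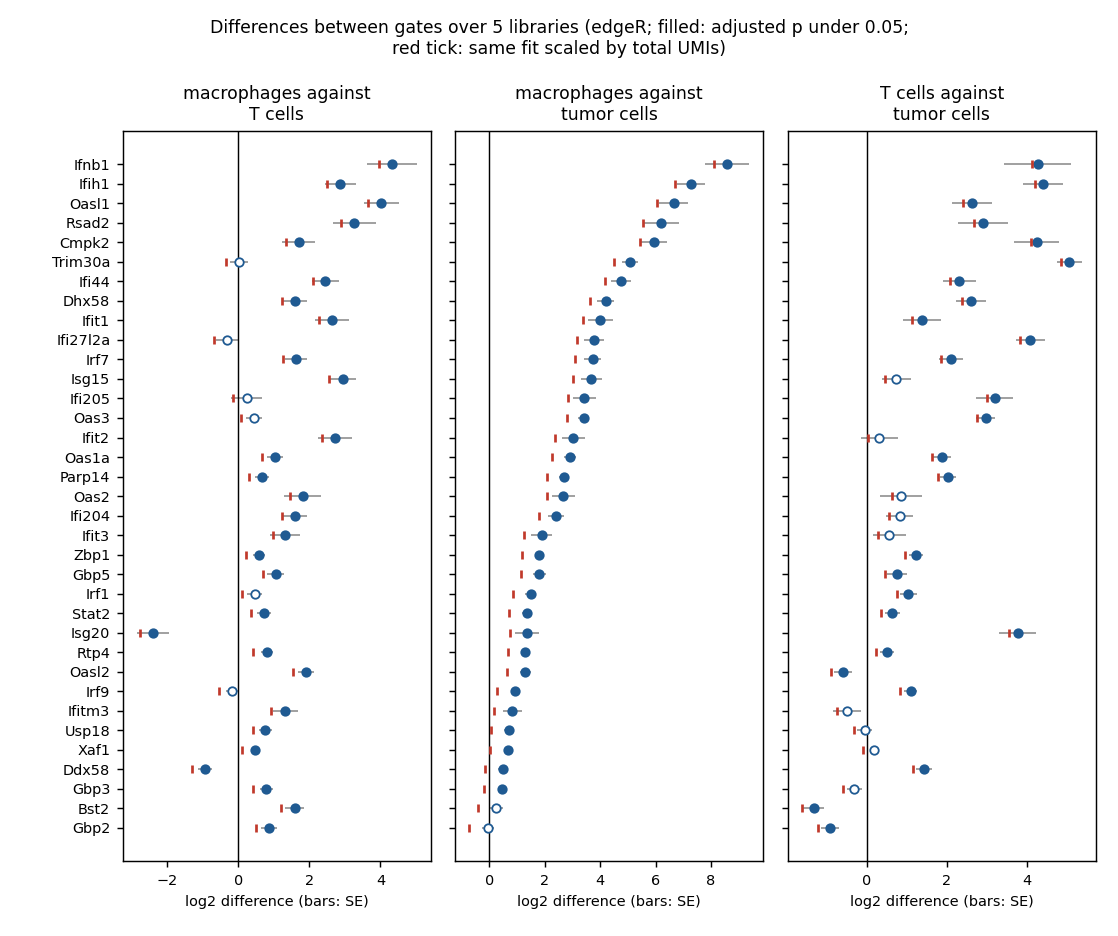
Log2 difference between gates for each of the 35 genes over 5 libraries (x axis, points with SE bars), filled where the adjusted p was under 0.05, with red ticks for the same fit scaled by total UMIs. Ifnb1, Ifih1, Oasl1 and Rsad2 lie farthest to the right against tumor cells, Isg20 and Ddx58 lie left of 0 against T cells, and Bst2 and Gbp2 lie left of 0 in T cells against tumor cells.

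The sensors separated by gate. Ifih1 (MDA5, a sensor of long double-stranded RNA) was at 62.4, 88.7, 85.98, 236 and 137 CPM in macrophages and between 0 and 1.77 CPM in tumor cells, a log2 difference of 7.27 (SE 0.52, adjusted p = 5.39e-07). The groups did not overlap, and Ifih1 was the member with the second largest difference after Ifnb1 (8.59, SE 0.79). Zbp1, a sensor of nucleic acid in the Z form, ran at 77.9, 56.2, 96.3, 62.8 and 71.9 CPM in macrophages and 26.4, 21.8, 46.3, 28.0 and 42.5 CPM in tumor cells. Ddx58, which encodes the RNA sensor RIG-I, went the other way between immune cells, with 10.1 to 19.9 CPM in macrophages and 34.1 to 47.5 CPM in T cells (log2 difference -0.94, SE 0.19, adjusted p = 0.00243). Dhx58, which encodes the related protein LGP2, Ifi204 and Ifi205, of the p200 family of DNA-binding proteins, were higher in macrophages than in tumor cells by 4.19, 2.42 and 3.43.

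Among the transcription factors Irf7, which amplifies interferon production, differed most, at 96.1, 73.7, 103, 109 and 93.4 CPM in macrophages and higher than in tumor cells by 3.74 (SE 0.30, adjusted p = 1.25e-06). Irf1 was at 135, 126, 164, 140 and 135 CPM in macrophages and 62.8, 47.2, 75.5, 130 and 92.5 CPM in tumor cells. Irf1 was thus called higher in macrophages than in tumor cells (1.49, SE 0.21), although the highest tumor cell value overlapped the macrophage range. Irf9 and Stat2, both of the response element complex, ran from 29.3 to 33.3 CPM and from 22.4 to 40.4 CPM in macrophages.

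The antiviral effectors were led by genes that tumor cells held at a few CPM. Rsad2 (viperin, which makes a chain-terminating nucleotide) was at 87.0, 172, 139, 224 and 206 CPM in macrophages and 0.671, 5.32, 3.38, 7.46 and 1.83 CPM in tumor cells, a log2 difference of 6.18 (SE 0.65, adjusted p = 8.86e-06). Oasl1, a catalytically inactive relative of the 2'-5' oligoadenylate synthetases, was at 99.3, 148, 136, 234 and 126 CPM in macrophages and below 3.83 CPM in every tumor cell library. Ifit1, of the family that binds foreign RNA ends, ran at 42.0, 85.4, 74.8, 112 and 118 CPM in macrophages and 4.79 to 12.2 CPM in tumor cells. In all 3 of these genes the macrophage level was lowest on day 0. Isg15, the ubiquitin-like modifier, was at 395, 452, 443, 543 and 372 CPM in macrophages, 124, 113, 106, 29.2 and 23.4 CPM in T cells and 52.1, 62.9, 83.5, 45.7 and 42.2 CPM in tumor cells. Its protease Usp18 did not separate T cells from tumor cells (-0.05, SE 0.19, adjusted p = 0.839).

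Isg20, an RNA exonuclease, was higher in T cells than in macrophages. It stood at 74.8, 52.2, 83.9, 139 and 80.7 CPM in T cells and 3.69 to 23.2 CPM in macrophages, with no overlap (log2 difference of macrophages -2.41, SE 0.45, adjusted p = 0.00127). Ifi27l2a stood in T cells at 1409, 743, 991, 624 and 1195 CPM, against 849, 547, 756, 547 and 454 CPM in macrophages (log2 difference of macrophages -0.32, SE 0.32, adjusted p = 0.476), and above its 36.3 to 112 CPM in tumor cells.

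Bst2, Gbp2 and Oasl2 were called higher in tumor cells than in T cells. Bst2 was at 639, 486, 709, 421 and 402 CPM in tumor cells, above its 143, 322, 281, 65.7 and 112 CPM in T cells in every library (log2 difference of T cells -1.33, SE 0.26, adjusted p = 0.00127). Gbp2 was at 153, 75.2, 159, 133 and 167 CPM in tumor cells and 90.7, 66.2, 118, 84.1 and 62.7 CPM in macrophages. Under total UMIs it was called lower in macrophages (-0.71, adjusted p = 0.0174). Ifitm3, which blocks viral fusion, ran from 327 to 549 CPM in tumor cells and 361 to 538 CPM in macrophages. In Oasl2 the log2 difference of T cells from tumor cells was smaller than in Bst2 (-0.59, SE 0.22, adjusted p = 0.0338).

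Of the 33 genes of the interferon pathway listed beside the members, 27 were tested. Of these, 23 were higher in macrophages than in tumor cells (35.7% of all genes) and 0 lower (31.5%), and 21 were higher in T cells than in tumor cells (33.4%) and 4 lower (28.7%). Between macrophages and T cells they were divided, with 12 higher (21.4%) and 9 lower (19.1%) in macrophages. With total UMIs these counts were 16 and 2, 21 and 4, and 9 and 11. All 12872 genes then split into 2729 higher and 7421 lower, 3305 and 4970, and 1779 and 4675, in the same order. The receptor chains split, since Ifngr2 was higher in macrophages (3.12, SE 0.31) and Ifngr1 in T cells (log2 difference of macrophages -0.92, SE 0.15). Jak1, a kinase shared by both receptors, was lower in macrophages than in T cells (-1.19, SE 0.14), and the endosomal sensors Tlr7 and Tlr9 were higher (2.36, SE 0.44, and 3.72, SE 0.35).

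Within macrophages a small set of members accompanied Ifnb1. In each library macrophages with an Ifnb1 UMI (30, 145, 112, 109 and 62 barcodes) were set against those without (343, 1108, 1391, 658 and 319), a split chosen after seeing the data and given as a description. Of the 34 other members, 30 had at least 20 UMIs in every library. Of these, 6, namely Rsad2, Ifit1, Isg15, Oasl1, Ifih1 and Gbp5, were at least 2-fold higher in the Ifnb1-positive macrophages of all 5 libraries, as were 24 of the 8520 genes measured this way (0.282%), and 0 members were 2-fold lower in all 5. Rsad2 stood at 371, 676, 567, 656 and 443 CPM with Ifnb1 and 44.1, 73.9, 72.0, 89.2 and 87.9 CPM without, between 5.04-fold and 9.13-fold higher. Ifit1 was higher by 3.89-fold to 14.3-fold and Isg15 by 3.86-fold to 7.49-fold. Ifit2 passed 2-fold in all libraries but that of day 0 (log2 ratio 0.69 there).

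Ifit3 reached from 1.23-fold to 2.65-fold. Many members showed no rise with Ifnb1. Irf7 stood at 126, 59.7, 87.1, 110 and 79.7 CPM with Ifnb1 and 91.7, 76.4, 106, 108 and 100 CPM without. Bst2 ranged from 0.74-fold to 1.21-fold, and Stat2, Irf9, Zbp1, Ifitm3 and Ddx58 had median log2 ratios between -0.29 and -0.04. The median over the 30 members was 0.17, against -0.08 over all genes (each the median over genes of the median over libraries). The other genes that led the split included Tnf (4.46-fold to 6.81-fold), Cxcl10 (4.37-fold to 7.09-fold), Ccl4 and Ccl3, cytokines of activated macrophages. Ifnb1-positive macrophages were deeper, with median UMIs of 16217, 8527, 12559, 13590 and 19977 against 5657, 4627, 3832, 4289 and 5219. With only macrophages of at least 5000 UMIs on both sides, the number of members higher in all 5 libraries was again 6 of 30. Of all 8306 genes measured there, 22 were (0.265%). Markers of T cells and of tumor cells were at or below 41.3 and 36.9 CPM in the Ifnb1-positive barcodes. Other marker lists were higher with Ifnb1 than without in single libraries, among them natural killer cells in control day 7 (178 and 87.0 CPM), fibroblasts in L-fuc day 7 (141 and 19.5 CPM), and monocytes (538 and 216 CPM) and B cells (199 and 104 CPM) in L-fuc day 21. Their part in these values was not tested. The response element core lay in the windows of 5 of these 6 members, all but Oasl1, and of 11 of the 20 others with a window apart from Ifnb1.

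**Figure D3:**
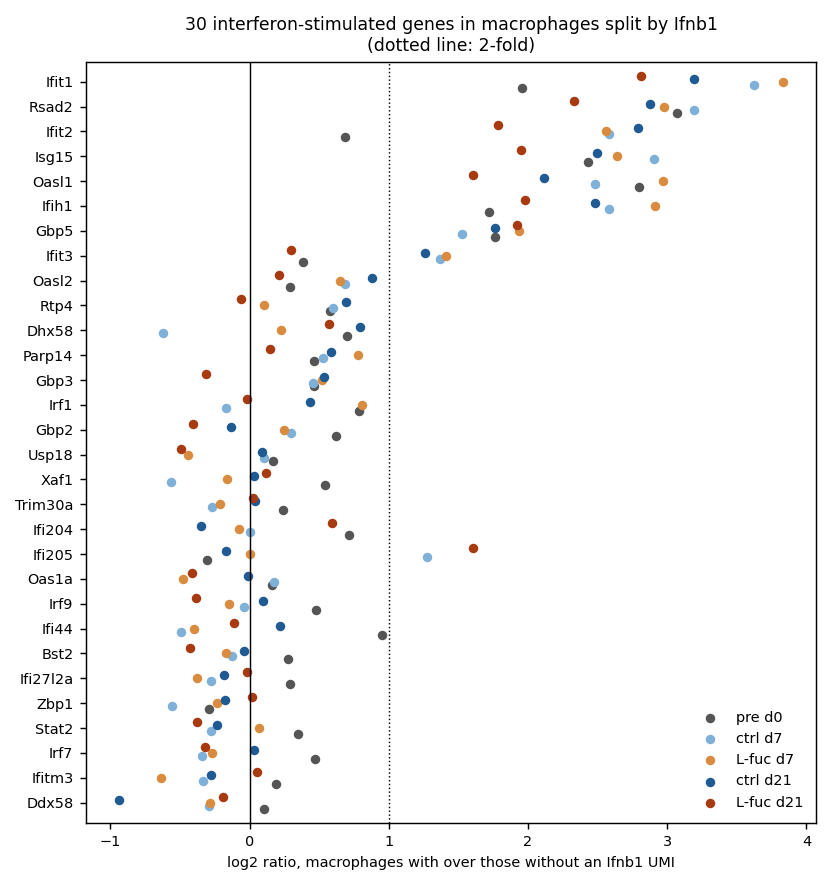
Log2 ratio of each of 30 genes between macrophages with and without an Ifnb1 UMI (x axis), 1 point for each library. Ifit1, Rsad2, Isg15, Oasl1, Ifih1 and Gbp5 lie right of the dotted 2-fold line in all 5 libraries, while most genes scatter around 0.

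At day 7 the members were higher with L-fuc in tumor cells. The median of their log2 ratios (L-fuc over control) was 0.51, against -0.04 over all genes, and 28 of 35 lay above 0, as did 40.6% of all genes. Of the 35 members, 7 were at least 2-fold higher, where 1.86% of all genes were, and 1 was at least 2-fold lower, where 4.85% of all genes were. The highest were Oas2, at 1.31 CPM in control and 5.01 CPM in L-fuc (log2 ratio 1.93, counting interval 1.57 to 2.31), Gbp5 (9.82 and 23.5 CPM, 1.26, 1.11 to 1.40) and Oas1a (3.95 and 8.96 CPM, 1.18, 0.95 to 1.41). Oas3, Gbp3, Zbp1 and Gbp2 followed at 1.17, 1.13, 1.09 and 1.08. In Gbp2, Gbp3, Gbp5, Zbp1 and Oas1a the control value of day 7 was the lowest of all 5 libraries. Gbp2 was at 75.2 CPM there against 133 to 167 CPM elsewhere, Gbp3 at 34.4 against 50.9 to 75.4 CPM and Zbp1 at 21.8 against 26.4 to 46.3 CPM.

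At the other end stood Ifnb1 and members that macrophages held far above tumor cells. Ifnb1 was lower with L-fuc in tumor cells (-3.67, -6.37 to -2.47), followed by Cmpk2 (-0.76, -2.52 to 0.47) and Rsad2 (-0.65, -0.95 to -0.37). The summed macrophage markers of the tumor cell gate were 39.7 CPM in control and 14.1 CPM in L-fuc at day 7, the T cell markers 20.02 and 7.28 CPM, and all 6 and all 7 of these markers were detected in both libraries. Their part in these values was not tested. The tumor cells of L-fuc were also deeper (median 14040 against 7394 UMIs), and with each barcode thinned to 1000 UMIs the median over the members was 0.55.

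In macrophages of day 7 the median was 0.26 against -0.22 over all genes, and 0 members passed 2-fold in either direction (backgrounds 1.76% higher and 9.12% lower). Oas1a (15.7 and 29.9 CPM, 0.92, 0.63 to 1.23), Ifi205 (0.84, 0.16 to 1.65) and Gbp2 (66.2 and 118 CPM, 0.83, 0.69 to 0.98) were highest, and Rsad2 (-0.31, -0.41 to -0.20), Ddx58 (-0.23, -0.56 to 0.10) and Ifit1 (-0.19, -0.34 to -0.05) lowest. Oas1a and Gbp2 at one end and Rsad2 at the other were thus shared with tumor cells. Red cell markers, of which all 4 were detected in each gate, stood at 720 CPM in control and 4466 CPM in L-fuc macrophages, at 1594 and 4061 CPM in T cells and at 623 and 1491 CPM in tumor cells. Natural killer markers of the macrophage gate stood at 102 and 509 CPM. The part of these markers' cells in the values was not tested. With each barcode thinned to 1000 UMIs the median of the members was 0.04, and with TMM sizes 0.47, settings that act on all genes as well.

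T cells of day 7 showed a median of 0.03 against -0.17, with 0 members at least 2-fold higher (2.84%) and 1 lower (9.17%). Usp18 (0.92, 0.47 to 1.43), Oas2 (0.85, -0.02 to 1.995) and Oas3 (0.69, 0.00 to 1.52) were highest, and Rsad2 (-1.17, -1.49 to -0.87), Ifit2 (-0.86, -1.29 to -0.42) and Ifi205 (-0.78, -1.57 to 0.02) lowest. Without the 5% deepest barcodes the T cell median was -0.19.

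Of the listed pathway genes, Ifng in T cells, Ifng and Cxcl9 in macrophages and Cxcl10 in tumor cells were at least 2-fold higher with L-fuc at day 7. Those at least 2-fold lower were Ifngr2 in T cells (22.8 and 10.99 CPM), Irf5 in tumor cells (1.54 and 0.682 CPM) and Tlr7 in tumor cells (22 and 3 UMIs). In macrophages 2 of 28 pathway genes were thus higher (1.76% of all genes) and 0 lower (9.12%). In T cells 1 of 26 was higher (2.84%) and 1 lower (9.17%). In tumor cells 1 of 26 was higher (1.86%) and 2 lower (4.85%). Ifng was at 112 CPM in control T cells and 322 CPM in L-fuc T cells (log2 ratio 1.52, 1.38 to 1.66), and at 47.9 and 147 CPM in the natural killer gate. Natural killer markers of the T cell gate, all 4 detected in both libraries, summed to 247 and 825 CPM, and monocyte markers to 302 and 584 CPM, and their part in these values was not tested. In the macrophage gate natural killer markers summed to 102 and 509 CPM and T cell markers to 47.7 and 67.4 CPM. Their part in the Ifng of macrophages was not tested either. Cxcl9, a chemokine that draws T cells, was at 490 and 1244 CPM in macrophages (1.34, 1.29 to 1.39), though at 13.6 and 10.9 CPM in tumor cells. In tumor cells Cxcl10 was at 130 and 260 CPM (1.00, 0.96 to 1.04). Over the whole pathway list the medians were near 0, at 0.02 in macrophages, 0.07 in T cells and -0.01 in tumor cells.

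**Figure D4:**
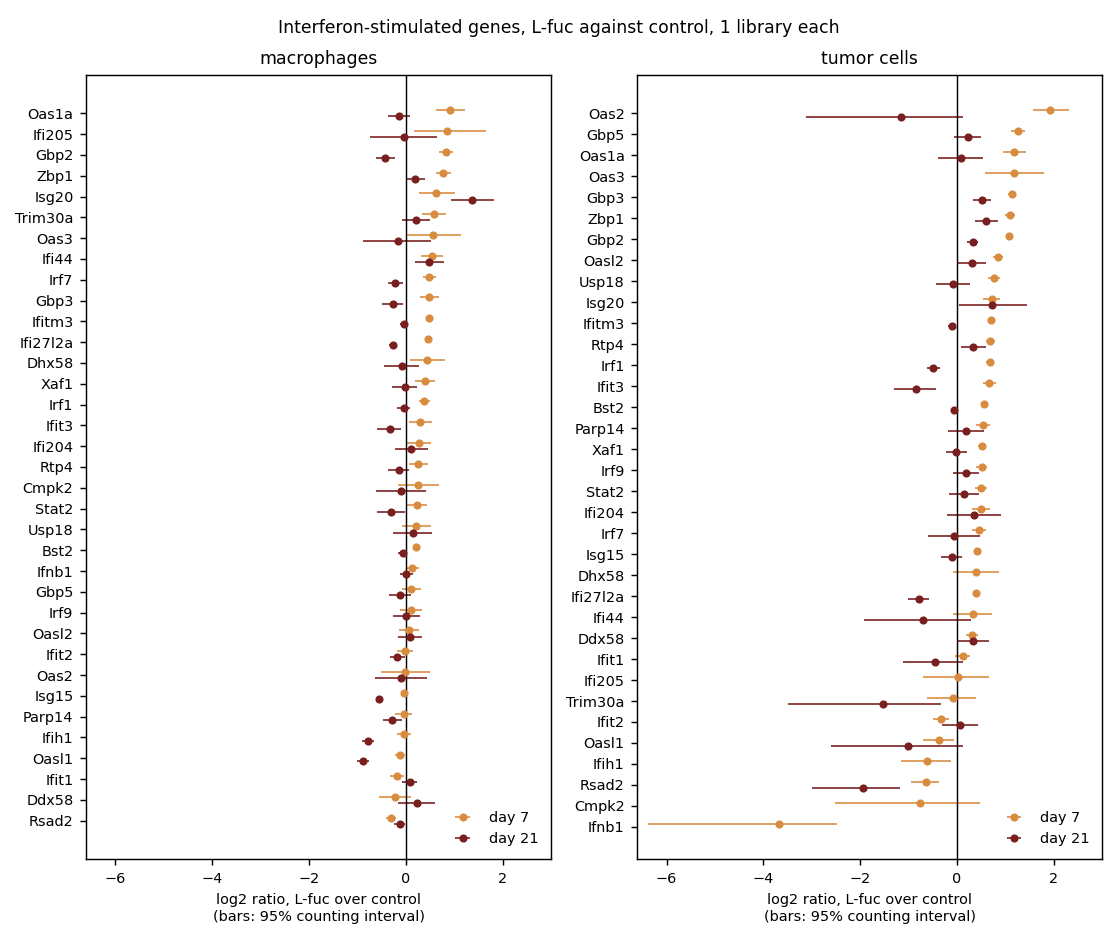
Log2 ratio of L-fuc over control (x axis) for each gene in macrophages and tumor cells, at day 7 and day 21, with 1 library a side and bars for the 95% counting interval. In tumor cells most day 7 points lie right of 0, with Oas2 at 1.93 and Ifnb1 at -3.67, while the day 21 points lie on both sides.

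At day 21 the members did not stand above the other genes. In macrophages the median was -0.09 against 0.03 over all genes, with 1 member at least 2-fold higher (4.84%) and 0 lower (0.771%). With each barcode thinned to 1000 UMIs the median was 0.06. Monocyte markers of the macrophage gate stood at 71.9 CPM in control and 323 CPM in L-fuc, and B cell markers at 51.2 and 135 CPM, and their part in these values was not tested. The higher member was Isg20 (8.95 and 23.2 CPM, 1.36, 0.94 to 1.82), then Ifi44 (0.48, 0.18 to 0.79) and Ddx58 (0.22, -0.16 to 0.60). Oasl1 (234 and 126 CPM, -0.89, -1.01 to -0.76), Ifih1 (236 and 137 CPM, -0.78, -0.91 to -0.66) and Isg15 (543 and 372 CPM, -0.55, -0.62 to -0.47) were lowest. These 3 genes were among the 6 that accompanied Ifnb1. Ifnb1 itself stood at 146 and 147 CPM in these libraries. Rsad2 and Ifit1, of the same set, stood at 224 and 206 CPM and at 112 and 118 CPM. What lay behind these values was not tested.

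In tumor cells of day 21 the median was -0.01 in both the members and all genes, over the 29 members with at least 20 UMIs, with 0 higher (2.13%) and 4 lower (1.15%). Rsad2 (79 and 13 UMIs, -1.94, -3.00 to -1.17), Trim30a (-1.54, -3.49 to -0.34) and Oas2 (-1.16, -3.13 to 0.12) were lowest, each on few UMIs. Isg20 (0.73, 0.04 to 1.43), Zbp1 (28.0 and 42.5 CPM, 0.61, 0.37 to 0.84) and Gbp3 (50.9 and 72.6 CPM, 0.51, 0.34 to 0.69) were highest, so that Zbp1 and Gbp3 were higher with L-fuc at both times.

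Only 54 and 34 T cells were left at day 21, and 15 members reached 20 UMIs. Their median was -0.29 against -0.22, with 0 higher (7.58%) and 5 lower (14.7%). Ifitm3 (125 and 20 UMIs, -3.07, -3.89 to -2.44), Irf1 (-1.49, -2.25 to -0.81) and Gbp2 (-1.34, -2.75 to -0.16) were lowest, and Ifi27l2a (0.93, 0.68 to 1.20), Bst2 (0.72, -0.06 to 1.65) and Gbp3 (0.43, -0.80 to 1.94) highest. In this gate B cell markers stood at 7.30 CPM in control (1 of 4 detected) and 260 CPM in L-fuc (all 4), and monocyte markers at 281 and 620 CPM, and their part in these values was not tested. Ifng in these T cells was at 1198 CPM in control and 219 CPM in L-fuc.

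The libraries of day 0 and of control water were also compared between days, again as 1 library against 1 library with no test. From day 0 to control day 7 the macrophage median was 0.20 against 0.37 over all genes, with 5 members at least 2-fold higher (26.0%) and 2 lower (2.45%). Cmpk2, a mitochondrial nucleotide kinase (2.70 and 9.25 CPM, 1.67, 0.86 to 2.84), Ifit2 (20.9 and 62.5 CPM, 1.57, 1.25 to 1.93) and Isg20 (1.55, 0.84 to 2.52) were highest, and Ifi205 (-1.94, -2.76 to -1.21), Oas1a (43.8 and 15.7 CPM, -1.47, -1.81 to -1.14) and Ifi27l2a (-0.63, -0.70 to -0.57) lowest. Oas1a returned to 54.6 CPM in control day 21. Between the same libraries the macrophage gate changed in red cell markers from 0 to 720 CPM, in natural killer markers from 8.85 to 102 CPM, in T cell markers from 10.8 to 47.7 CPM and in monocyte markers from 340 to 65.4 CPM, and their part in these values was not tested. In T cells the median was -0.12 against 0.34, with 2 higher (24.8%) and 1 lower (4.95%). Bst2 (1.17, 1.01 to 1.35), Ifitm3 (1.09, 0.93 to 1.26) and Ifit2 (0.88, 0.28 to 1.59) were highest there, and Dhx58 (-1.40, -2.32 to -0.56), Ifi27l2a (-0.92, -0.99 to -0.86) and Oas1a (-0.91, -1.46 to -0.37) lowest. B cell markers of the T cell gate went from 628 to 18.8 CPM, neutrophil markers from 50.3 to 731 CPM and red cell markers from 0.396 to 1594 CPM. The part of these other cells in the values was not tested. TMM sizes, which act on all genes as well, gave a T cell median of -0.37 over the members.

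Tumor cells had a median of 0.09 against 0.03, with 6 members higher (10.5%) and 2 lower (3.44%) in control day 7 than on day 0. Gbp5 (-1.17, -1.47 to -0.84), Gbp2 (-1.03, -1.14 to -0.91) and Gbp3 (-0.74, -0.92 to -0.54) were lowest. Rsad2 was at 3 UMIs on day 0 and 369 in control day 7, and Ifnb1 and Ifih1 were at 0 UMIs on day 0, so that they were at least 1.83-fold and 2.64-fold higher in control day 7. With these set to their bounds 5 members were 2-fold higher and the median was still 0.09. With each barcode thinned to 1000 UMIs the median was -0.30, and the log2 ratio of Gbp5 turned to 0.34. The 1 UMI added to each sum then weighs more in the 260 barcodes of day 0 than in the 8648 of control day 7. That lowers the thinned ratios of members with few UMIs. Gbp5 held 98 UMIs on day 0 before thinning and fewer after it. The thinned ratios of Ifnb1 and Ifih1, -0.68 and -0.48, are below 0 only through the 1 UMI added to their 0 UMIs on day 0. They are no reversal. The macrophage markers of the gate were 3.13 CPM on day 0 and 39.7 CPM in control day 7, and their part in these values was not tested.

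From control day 7 to control day 21 the macrophage median was 0.29 against -0.17, with 3 members higher (3.60%) and 0 lower (15.5%). Oas1a (15.7 and 54.6 CPM, 1.79, 1.51 to 2.09), Ifih1 (88.7 and 236 CPM, 1.41, 1.29 to 1.54) and Ifi205 (1.08, 0.35 to 1.90) were highest, and Isg20 (-0.35, -0.83 to 0.12), Ifi44 (-0.32, -0.61 to -0.03) and Usp18 (-0.31, -0.67 to 0.04) lowest. In tumor cells the median was 0.12 against 0.16, with 3 higher (6.44%) and 2 lower (7.30%). Irf1 (1.47, 1.37 to 1.56), Gbp5 (1.28, 1.06 to 1.49) and Oas1a (1.19, 0.83 to 1.53) were highest, and Ifnb1 (85 and 0 UMIs, at least 4.33-fold lower), Isg20 (-1.28, -1.86 to -0.83) and Ifih1 (-0.78, -2.00 to 0.02) lowest. Macrophage markers of the tumor cell gate went from 39.7 to 6.61 CPM, and their part in these values was not tested. T cells had a median of 0.07 against 0.11, with 4 higher (15.3%) and 8 lower (15.4%). Of the 8 lower members, 5 (Rsad2, Ifit2, Ifi204, Oasl1 and Ifnb1) were at 0 UMIs in the 54 T cells of control day 21, which allows up to 10.95 CPM, and with bounds in their place 4 members were 2-fold lower and the median was 0.08. Ifi205 (1.77, -0.17 to 2.95), Dhx58 (1.65, -1.09 to 3.06) and Oas1a (1.65, 0.40 to 2.52) were highest. With stricter gates Ifi205 turned to -1.11, and with each barcode thinned to 1000 UMIs the median was 0.64. The 1 UMI added to each sum then weighs more in these 54 T cells than in the 968 of control day 7. That raises the thinned ratios of members with few UMIs. The T cell gate went from 731 to 0 CPM in neutrophil markers and from 1594 to 25.6 CPM in red cell markers, and their part in these values was not tested.

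Several members have near-identical copies whose reads could not be told apart with certainty. In macrophages Ifit3b stood at 3.12 to 5.24 CPM beside 20.4 to 48.1 CPM of Ifit3, Oas1g at 5.89 to 19.7 CPM beside 15.7 to 54.6 CPM of Oas1a, and Gbp2b at 20.2 to 55.1 CPM beside 62.7 to 118 CPM of Gbp2.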

How the data were processed

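Droplet libraries were made from pooled SW1 tumors. The authors aligned the reads to mm10 with Cell Ranger, which called cells and counted UMIs. Per the labels this was version 3.0 (with Seurat 4.0 for later steps), and per the file headers version 7.1. The deposited matrices hold raw UMI counts per gene and barcode, and the deposited T cell receptor contigs hold a UMI count each, used only for 1 alternative T cell gate. The members and lists were chosen with earlier results of these data known.

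Barcodes in more than 1 gate were left out, no doublet caller was run, and UMIs were summed per gate and library. Gates were compared with edgeR 4.0.16 (TMM, filterByExpr, library as block, Benjamini-Hochberg adjusted p, threshold 0.05). SE is the log2 difference divided by the root of the F statistic. The scripts were tested on simulated data. P-values measure how far the difference between gates varied over 5 pools of different treatment, not over mice. Pairs of libraries were compared by log2 ratios of CPM (1 UMI added to each sum) for genes that reached 20 UMIs over both. Intervals are exact conditional binomial at 95% and, like the limit of 3 counts for a gene at 0, cover counting error only. Each library held between 14231519 and 114827373 UMIs in barcodes kept. Alternatives, among them DESeq2 1.42.0, other gates, filters and scalings, are given in the closing section.

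Genes named per comparison are the 3 highest and 3 lowest members. The highest-level member of each role is given per library. Tumor necrosis factor and chemokines, Irf7, Ifih1, Isg20 and the genes of the Ifnb1 split were named after their values were seen.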

Additional observations from a re-analysis of the deposited data

Results flagged for a closer look

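The ratio of L-fuc over control pointed opposite ways at day 7 and day 21, with both counting intervals away from 0, for 12 pairs of gene and gate, and in each the member was higher with L-fuc at day 7 and lower at day 21. The difference between the days was not tested, since each value compares 1 library with 1 library. How many of all genes turned in this way was not counted, so the 12 pairs have no background beside them. As log2 ratios at day 7 and day 21, these were Gbp2 (0.83 and -0.42), Gbp3 (0.48 and -0.27), Ifi27l2a (0.47 and -0.27), Ifit3 (0.30 and -0.34), Irf7 (0.48 and -0.22) and Stat2 (0.22 and -0.30) among 35 members compared in macrophages, Ifi27l2a (0.39 and -0.79), Ifit3 (0.66 and -0.85), Ifitm3 (0.71 and -0.10) and Irf1 (0.68 and -0.49) among 29 in tumor cells, and Irf1 (0.17 and -1.49) and Isg20 (0.68 and -0.77) among 15 in T cells. No group held 4 or more samples, so no sample was set against the others of its group.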

How the results depend on the processing

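With 5 libraries of 5 different groups the comparisons of L-fuc and control rest on 1 library a side, and no paired analysis was possible because each group holds 1 library. The gate comparisons were fitted with the library as a block. Without the replicate block the members counted 24 higher and 2 lower in macrophages against T cells, 31 and 0 against tumor cells, and 23 and 2 in T cells against tumor cells. All 12872 genes then split into 2485 higher and 2052 lower, 4244 and 3627, and 3913 and 3221. Over the alternatives other than total UMIs, the members higher numbered 22 to 27, 30 to 33 and 19 to 27 in these 3 comparisons, and 23 to 26, 30 to 32 and 19 to 23 when each library was left out in turn. The counts over all genes moved too. Without L-fuc day 7 the members higher numbered 23, 30 and 19, beside 2238, 3424 and 2902 of all 12516 genes. The main fit had 2754, 4590 and 4300 of 12872 genes higher. Members lower in T cells than in tumor cells numbered 1 with barcodes of several gates counted in each, where 3997 of all 13047 genes were lower. They numbered 2 to 4 when each library was left out, beside 3294 to 3559 of all genes. With total UMIs as sizes, added after seeing the data, macrophages exceeded T cells for 17 members and fell below them for 3, exceeded tumor cells for 26 and fell below them for 1, and all genes split into 1779 higher and 4675 lower and 2729 higher and 7421 lower, against 2754 and 2464 and 4590 and 4050 with TMM factors. In T cells against tumor cells they split 3305 and 4970 against 4300 and 3695.

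The medians of L-fuc over control moved with each barcode thinned to 1000 UMIs to 0.038 in macrophages of day 7, 0.064 in macrophages of day 21 and 1.11 in T cells of day 21, where 1 member was left. The same thinning gave -0.30 for tumor cells between day 0 and control day 7 and 0.64 for T cells between control day 7 and day 21. After thinning, the 1 UMI added to each sum weighs most in gates of few barcodes and moves the ratios of members with few UMIs. TMM sizes gave 0.47 in macrophages of day 7, -0.37 in T cells between day 0 and control day 7 and 0.44 in macrophages between control day 7 and day 21, where counting barcodes of several gates gave 0.40. Without the 5% deepest barcodes the T cell median of day 7 was -0.19. These are medians of the members only. Thinning and scaling act on all genes as well, and the medians of all genes under these settings are not given here. The causes were not tested. In tumor cells of day 7 the median ran from 0.50 to 0.55 over all alternatives. Thinning turned Gbp5 of tumor cells between day 0 and control day 7 (0.34), and stricter gates turned Ifi205 of T cells between control day 7 and day 21 (-1.11). Thinned Ifnb1 (-0.68) and Ifih1 (-0.48) of the same tumor cells fell below 0 only through the 1 UMI added to their 0 UMIs on day 0. The number of members accompanying Ifnb1 was 5 to 7 over its 4 alternatives, all added after seeing the data. It was 5 of 16 with macrophages thinned to 2000 UMIs, beside 34 of all 2801 genes (1.21%). With at least 3 Ifnb1 UMIs it was 7 of 29, beside 29 of 8412 genes (0.345%). The stricter macrophage gate gave 6 of 30, beside 25 of 8443 genes (0.296%).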

Other observations

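Barcodes outside the 3 gates held a mixture of cells, and their interferon-stimulated genes varied more between libraries than those of macrophages. The median log2 ratio over the 35 members was 0.81 for L-fuc against control at day 7 (all genes -0.13), -0.63 at day 21 (all genes -0.22), -1.43 for control day 7 against day 0 (all genes 0.38) and 1.35 for control day 21 against control day 7 (all genes -0.03). Among them the monocytes of day 0, 40 barcodes, stood at 695 CPM of Ifnb1, 506 CPM of Rsad2 and 1077 CPM of Isg15, the 70 of control day 7 at 59.4, 222 and 521 CPM, the 140 of L-fuc day 7 at 9.15, 97.99 and 538 CPM, and the 20 of control day 21 at 34.3, 91.4 and 120 CPM. Neutrophils held Isg15 at 1287 CPM in control day 7 (20 barcodes) and 2515 CPM in L-fuc day 7 (40 barcodes). Each of these values comes from 1 library and few barcodes and was not tested.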
